A study of Homo sapiens with 16 samples.

Results

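The comparison asked what the histone deacetylase inhibitor entinostat did to gene expression in cells that also received doxorubicin. Its members were the 8 of 16 arrays with doxorubicin, chosen by their treatment labels. There were 4 arrays with entinostat, from the groups Entinostat and Doxorubicin (2 arrays) and Entinostat and ATRA and Doxorubicin (2 arrays). The 4 arrays without it came from the groups Doxorubicin (2 arrays) and ATRA and Doxorubicin (2 arrays). All 8 were of MDA-MB-231 cells, an established line from a triple-negative breast cancer, exposed for 48 h to 0.2 µM doxorubicin. Entinostat was given at 2.5 µM and all-trans retinoic acid (ATRA) at 1 µM where a group's name holds them. The other 8 arrays of the series lack doxorubicin and are used below to ask whether the response to entinostat differed there. They also entered the normalization and the estimate of spread in the contrasts by ATRA. The labels number the replicates 1 and 2 and do not call them separate cultures, so p-values here reflect how these samples vary, and that variation may be technical. All arrays come from 1 cell line.

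Entinostat inhibits the class I histone deacetylases HDAC1, HDAC2 and HDAC3, enzymes that remove acetyl groups from histone tails and work within corepressor complexes. Its inhibition raises histone acetylation, and silent or weakly expressed genes are often the ones to respond. Doxorubicin is an anthracycline that intercalates into DNA and traps topoisomerase II on broken strands, and it is a standard drug in breast cancer. The best known target of class I inhibitors is CDKN1A, which encodes the cell cycle inhibitor p21 and is also induced by DNA damage through p53. MDA-MB-231 cells are mesenchymal in character, carry mutant p53 and lack oestrogen receptor.

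Expression was measured on Illumina bead arrays. Signals below are the deposited background-subtracted intensities, which can fall below 0. Unless stated otherwise, 4 signals with entinostat are given in the order Entinostat and Doxorubicin replicates 1 and 2, then the 3-drug group replicates 1 and 2. The 4 without it are in the order Doxorubicin replicates 1 and 2, then ATRA and Doxorubicin replicates 1 and 2. Changes are differences of normalized log2 intensity, with minus without entinostat, each with its standard error (SE) from a limma fit over the 8 arrays that held ATRA and replicate number as blocking terms. Folds are on that offset scale and understate changes of dim genes. Adjusted p-values are Benjamini-Hochberg values over the 14812 genes tested, and genes below 0.05 are those called. Where all 4 arrays of an arm were undetected and below 22.3, which is 3 times the background noise, the text gives a lower bound of the fold. The bound holds for this normalization only, and other settings gave smaller changes.

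On each of the 16 arrays, 11402 to 12748 of 31329 named genes were detected. The deposited detection p-values miss some bright genes. CDKN1A was detected on 3 of the 8 doxorubicin arrays, at signals of 2431.1 to 3433.7. The alternative background fitted from these p-values, used below, carries the same limit. It also gave smaller log2 changes for genes dim without entinostat, such as 1.02 for PRAMEF9 and 0.74 for CCNA1. Across all alternative settings the smallest log2 changes of VWF, CCL2, CXCR4 and BIK were 0.14, 0.15, 0.18 and 0.07. The first principal component of the 8 arrays carried 54.4% of the variance. It ran from 14.97 to 27.61 on arrays with entinostat and from -26.43 to -17.75 on arrays without it. The second component, with 17.5%, was negative on all 4 arrays numbered 1 and positive on all 4 numbered 2. All 9 markers of MDA-MB-231 cells were detected on all 8 arrays, with summed signals of 24714.2 to 27000 with entinostat and 25427.9 to 27616.6 without it. FOSL1, an AP-1 subunit of this list, was at 88.7, 51.3, 121.2 and 78.1 with entinostat, against 164.8, 105.2, 306.9 and 135.7 without it, and fell by 0.66 (adjusted p = 0.00192, and 0.0974 with the background fitted from the detection p-values). VIM, which encodes the mesenchymal filament vimentin, was at 12215.2, 12975.7, 11816.6 and 13286.5 with entinostat, against 13128.8, 12472.4, 12860.8 and 12489.1 without it (-0.01, SE 0.09, adjusted p = 0.939). Of 14 markers of blood, endothelial and stromal cells, 6 were detected on none of the 8 arrays, PTPRC, CD3E, COL1A2, DCN and LUM among them. The summed signal of these 14 was 725.3 to 1041 with entinostat and 175.3 to 317.7 without it. CD14, a receptor gene of monocytes, made up most of this sum, with 796.2, 766.2, 571.4 and 775.1 against 162.0, 107.6, 221.7 and 132.3. It rose by 1.84 (adjusted p = 4.44e-05). The endothelial marker VWF also rose, at 122.0, 88.0, 88.7 and 27.9 with entinostat, against 2.7, -3.7, 4.7 and -4.2 without it, at least 1.95-fold higher (adjusted p = 0.000345). The part of other cells in the results was not tested.

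Entinostat changed many of the genes measured under doxorubicin. Limma called 3794 genes (25.6% of those tested), 1801 of them higher (12.2%) and 1993 lower (13.5%), and 5653 had an unadjusted p below 0.05. The rises were larger than the falls. Of the genes called higher, 285 rose more than 2-fold and 37 more than 4-fold, with a median size of 0.55 on the log2 scale. Of the genes called lower, 14 fell more than 2-fold and 0 more than 4-fold, with a median size of 0.45. The change had 1 sign in all 4 matched pairs of arrays for 1756 of the genes called higher and for 1949 of those called lower. The 4 arrays with entinostat lay wholly above or below the 4 without it for 3659 genes (24.7%), 1673 higher (11.3%) and 1986 lower (13.4%). Over all genes tested the median change was -0.03.

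**Figure D1:**
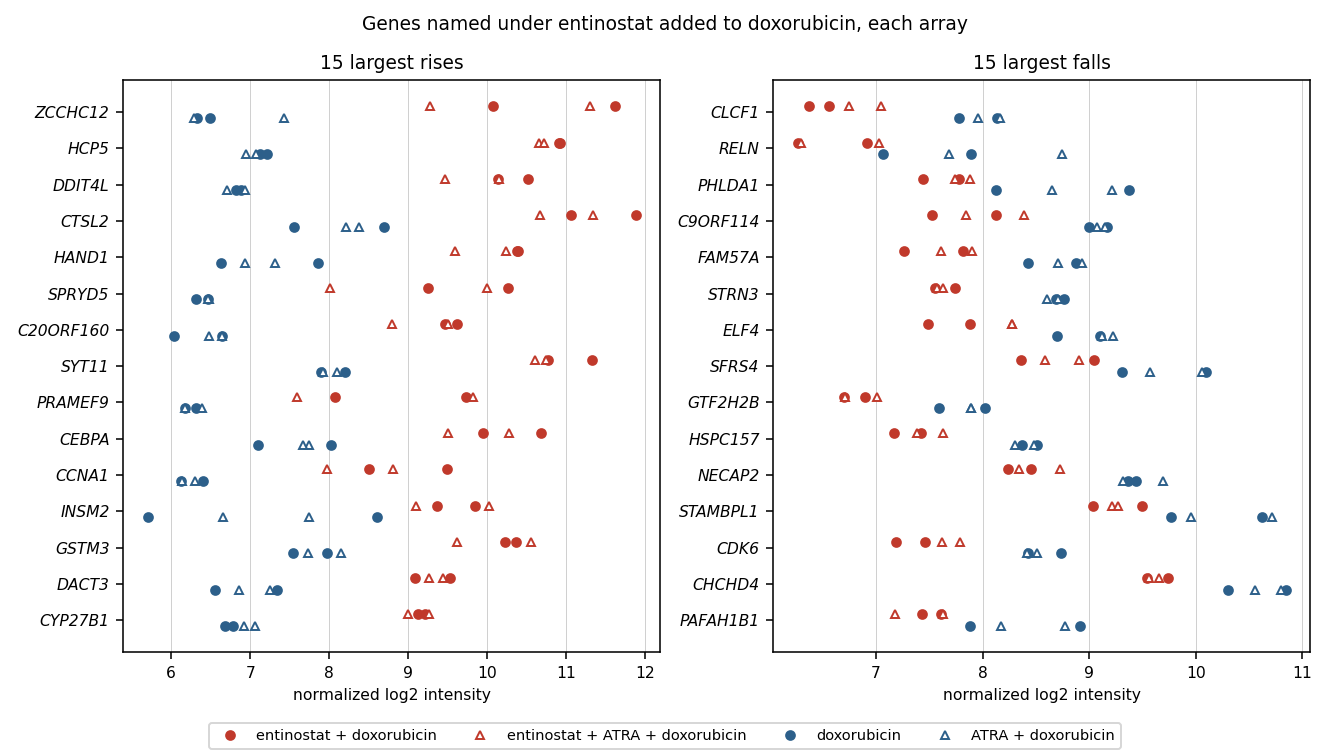
Normalized log2 intensity (horizontal axis) of the 15 largest rises (left) and the 15 largest falls (right), 1 row per gene and 1 point per array, with entinostat in red above and without it in blue below. Filled circles are arrays without ATRA and open triangles arrays with it. In the left panel the red and blue points do not overlap for any of the 15 genes, and the changes run from 2.29 to 3.94, against -1.33 to -0.97 in the right panel.

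Most of the largest rises were in genes that were dim or near background on doxorubicin without entinostat. ZCCHC12, which encodes a zinc-finger coactivator of bone morphogenetic protein signalling, was at 3093.2, 1011.7, 2458.4 and 549.9 with entinostat, against 12.1, 21.3, 103.1 and 9.6 without it. It rose by 3.94 (15.3-fold, SE 0.31, adjusted p = 2.81e-05), and the lowest array with entinostat was above the highest without it. HCP5, a long noncoding RNA gene of the HLA region on chromosome 6, was at 1841.3, 1884.0, 1554.1 and 1604.6 with entinostat, against 79.6, 70.0, 54.2 and 66.3 without it. Its arrays agreed closely within each arm, and its rise of 3.72 (13.1-fold, SE 0.09) had the smallest adjusted p of all genes, 9.49e-09. DDIT4L, a relative of the mTORC1 inhibitor DDIT4, was at 1391.7, 1058.2, 1064.9 and 636.1 with entinostat, against 44.1, 49.2, 53.2 and 35.7 without it (3.23, SE 0.14, adjusted p = 1.76e-06). The lysosomal cysteine protease gene CTSL2, now named CTSV, was at 3741.0, 2085.1, 2541.9 and 1554.1 with entinostat, against 118.9, 351.6, 264.6 and 227.0 without it (3.03, SE 0.27, adjusted p = 6.33e-05). CTSL2 was thus bright on every array with entinostat and well above background on every array without it.

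HAND1, CEBPA and INSM2 encode transcription factors. HAND1, a basic helix-loop-helix factor of heart and placenta, was at 1266.9, 1253.9, 1139.3 and 705.4 with entinostat, against 29.8, 161.2, 53.9 and 90.7 without it (2.97, SE 0.23, adjusted p = 2.83e-05). CEBPA, a factor of myeloid and adipocyte differentiation, was at 1545.5, 920.0, 1160.9 and 652.0 with entinostat, against 67.9, 190.0, 146.3 and 134.3 without it (2.46, SE 0.25, adjusted p = 0.000111). For both genes the arms did not overlap. INSM2, a zinc-finger factor of neuroendocrine cells, was at 590.2, 850.2, 973.8 and 476.0 with entinostat, against -17.0, 320.9, 32.6 and 144.3 without it. The 4 arrays without entinostat spread widely for INSM2, and its SE was the largest among these genes (2.41, SE 0.44, adjusted p = 0.00321).

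CCNA1, PRAMEF9 and SPRYD5 were below 22.3 on all 4 arrays without entinostat. CCNA1, the cyclin of male meiosis, was at 647.9, 292.8, 377.9 and 183.6 with entinostat, against 16.2, 1.2, 10.7 and 2.1 without it, which is at least 5.34-fold higher (SE 0.16 on the log2 scale, adjusted p = 1.1e-05). PRAMEF9, of the PRAME family, was at 788.8, 199.3, 835.9 and 126.8 with entinostat, against 10.9, 3.6, 15.5 and 3.7 without it, at least 5.77-fold higher (adjusted p = 0.000274). SPRYD5, now TRIM51, was at 1163.4, 539.5, 951.1 and 189.9 with entinostat, against 10.9, 19.9, 20.6 and 19.8 without it (2.95, SE 0.31, adjusted p = 0.000149). On the entinostat arrays, replicate 1 was brighter than replicate 2 in both ATRA strata for these 3 genes. PRAMEF9 and SPRYD5 belong to families of near-identical copies, so their signals may be shared with relatives. SYT11, a synaptotagmin of vesicle traffic, was at 2491.0, 1674.9, 1658.3 and 1480.1 with entinostat, against 225.7, 167.3, 205.2 and 171.4 without it (2.83, SE 0.11, adjusted p = 8.4e-07). C20ORF160, now CCM2L, a relative of an endothelial junction gene, was at 635.6, 711.8, 660.6 and 375.4, against -2.6, 31.7, 21.0 and 31.2 without entinostat (2.90, SE 0.19, adjusted p = 1.17e-05).

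The remaining 3 of the 15 largest rises encode a detoxifying enzyme, a Wnt inhibitor and an enzyme of vitamin D. GSTM3, a glutathione S-transferase, was at 1240.8, 1119.0, 1440.3 and 719.0 with entinostat, against 117.3, 180.6, 215.0 and 141.9 without it (2.35, SE 0.18, adjusted p = 2.83e-05). DACT3, which binds dishevelled and dampens Wnt signalling, was at 471.9, 668.9, 630.5 and 545.0 with entinostat, against 25.4, 92.5, 47.4 and 83.9 without it (2.33, SE 0.14, adjusted p = 5.6e-06). CYP27B1, which makes the active form of vitamin D, was at 488.8, 523.4, 545.0 and 439.4 with entinostat, against 40.7, 34.2, 52.0 and 65.9 without it (2.29, SE 0.11, adjusted p = 1.81e-06). Each of the 3 separated the arms on all arrays. With the background fitted from the detection p-values, the adjusted p was above 0.05 for SPRYD5 (0.059), PRAMEF9 (0.101), CCNA1 (0.0517) and INSM2 (0.0551).

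The largest falls were near 2-fold and came mostly from genes of moderate signal. CLCF1, a cytokine of the interleukin-6 family, was at 26.5, 14.6, 65.4 and 39.9 with entinostat, against 151.5, 209.3, 218.2 and 179.9 without it (-1.33, SE 0.12, adjusted p = 7.63e-05). CDK6, the kinase that with D-type cyclins drives cells out of G1, was at 78.7, 108.8, 130.0 and 154.3 with entinostat, against 357.9, 274.8, 295.4 and 273.5 without it (-1.01, SE 0.13, adjusted p = 0.000591). Neither gene's arms overlapped. ELF4, an ETS transcription factor, was at 113.2, 167.8, 241.9 and 241.5, against 346.5, 479.6, 531.7 and 487.6 without entinostat (-1.05, SE 0.12, adjusted p = 0.000231). The striatin gene STRN3, a subunit of phosphatase complexes, was at 147.9, 120.2, 123.2 and 130.6, against 345.7, 370.5, 322.2 and 351.0 without entinostat (-1.07, SE 0.09, adjusted p = 4.14e-05). The splicing factor gene SFRS4, now SRSF4, was at 459.8, 259.6, 412.7 and 316.5, against 1034.5, 561.8, 1009.5 and 690.6 without entinostat (-1.03, SE 0.10, adjusted p = 8.44e-05). Replicate 1 of SFRS4 was brighter than replicate 2 in all 4 groups.

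Of the other falls, NECAP2, an adaptor of endocytosis, was at 283.7, 233.0, 353.8 and 256.1 with entinostat, against 633.3, 580.6, 758.2 and 566.3 without it (-1.01, SE 0.09, adjusted p = 6.33e-05). CHCHD4, which imports proteins into the mitochondrial intermembrane space, was at 792.7, 676.3, 690.6 and 735.7, against 1772.1, 1195.1, 1713.7 and 1438.6 without entinostat, and fell by 1.00 (SE 0.11, adjusted p = 0.0002). The deubiquitinase gene STAMBPL1 was at 650.4, 454.7, 527.0 and 548.3, against 1499.2, 798.7, 1607.9 and 920.8 without entinostat (-1.01, SE 0.14, adjusted p = 0.000772). For these 3 genes every array with entinostat was below every array without it. The methyltransferase gene C9ORF114, now SPOUT1, fell by 1.13 (adjusted p = 0.000443), FAM57A, now TLCD3A, by 1.09 (4.14e-05) and HSPC157, now the noncoding LINC00339, by 1.02 (0.000192). GTF2H2B, a transcribed pseudogene of a TFIIH subunit whose copies may share its signal, fell by 1.02 (7.52e-05). PHLDA1, RELN and PAFAH1B1 fell by 1.13, 1.22 and 0.97, but each lost its call with the background fitted from the detection p-values (adjusted p = 0.0572, 0.172 and 0.0787). RELN, which encodes a matrix protein of neuronal migration, was dim, at 53.5, 8.7, 63.7 and 10.2 with entinostat, against 65.3, 166.3, 359.9 and 136.5 without it.

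Of the class I deacetylase genes HDAC1, HDAC2, HDAC3 and HDAC8, HDAC3 alone passed the test. HDAC1 was at 2914.3, 3592.2, 3131.5 and 3384.8 with entinostat, against 3701.7, 3547.5, 4100.5 and 3448.5 without it, and did not pass (-0.19, SE 0.10, adjusted p = 0.217). HDAC2 (adjusted p = 0.713) and HDAC8 (0.758) did not pass either. HDAC3, the catalytic subunit of the NCoR and SMRT corepressors, was at 777.1, 712.1, 769.8 and 751.0 with entinostat, against 479.9, 509.7, 590.9 and 607.0 without it, a rise of 0.43 (SE 0.09, adjusted p = 0.00683). Of 22 tested genes for class I deacetylases and corepressor subunits, 4 rose and 3 fell, beside 12.2% higher and 13.5% lower over all genes. The same 2 shares are those to set beside every list count below. RCOR2, a CoREST subunit, rose by 0.88 (adjusted p = 0.000283) and CHD4, the remodeller of the NuRD complex, by 0.57 (0.00591), while MTA2, also of NuRD, fell by 0.81 (0.000197). Of 15 other deacetylases and acetyltransferases, 0 rose and 2 fell, KAT2B by 0.49 (0.0089, but 0.0566 with the background fitted from the detection p-values) and HAT1 by 0.38 (0.0124, but 0.0536 without ATRA and Doxorubicin replicate 1 and 0.0505 without Entinostat and Doxorubicin replicate 2). Of these 15, 4 fell without Doxorubicin replicate 1 or Entinostat and Doxorubicin replicate 1.

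The histone genes were counted in separate lists. Of 21 clustered core histone genes 0 were called by limma, with changes of -0.24 to 0.48. Without Doxorubicin replicate 1, 3 of them fell, without Doxorubicin replicate 2, 2 rose, and without the 3-drug group's replicate 2, 1 rose. Of 11 linker and variant histone genes, 4 rose and 1 fell, and 2 rose without the replicate block. H1F0, the linker histone of quiescent and differentiating cells, was at 1828.3, 835.9, 1046.4 and 943.7 with entinostat, against 1049.3, 380.2, 863.7 and 569.5 without it. It rose by 0.68 (SE 0.18, adjusted p = 0.0187), but the arms overlapped and the adjusted p was 0.142 without the replicate block. Among DNA and histone methyltransferases and polycomb genes, 2 of 20 rose and 5 fell (2 fell with 1 array left out, at the fewest). SUV39H1, which methylates histone H3 at heterochromatin, was at 408.4, 489.2, 470.9 and 534.5 with entinostat, against 945.5, 874.5, 956.7 and 907.4 without it, a fall of 0.86 (SE 0.10, adjusted p = 0.000193). The polycomb repressor gene BMI1 fell by 0.67 (adjusted p = 0.00207). TOP2A, the target of doxorubicin, was at 1585.7, 1185.0, 1202.0 and 1132.2 with entinostat, against 1689.0, 1378.6, 1695.9 and 1495.1 without it, and did not pass (-0.27, SE 0.10, adjusted p = 0.0708), though it did without Entinostat and Doxorubicin replicate 1 (0.038), with array weights (0.0422) and in a fit of all 16 arrays (0.0426).

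**Figure D2:**
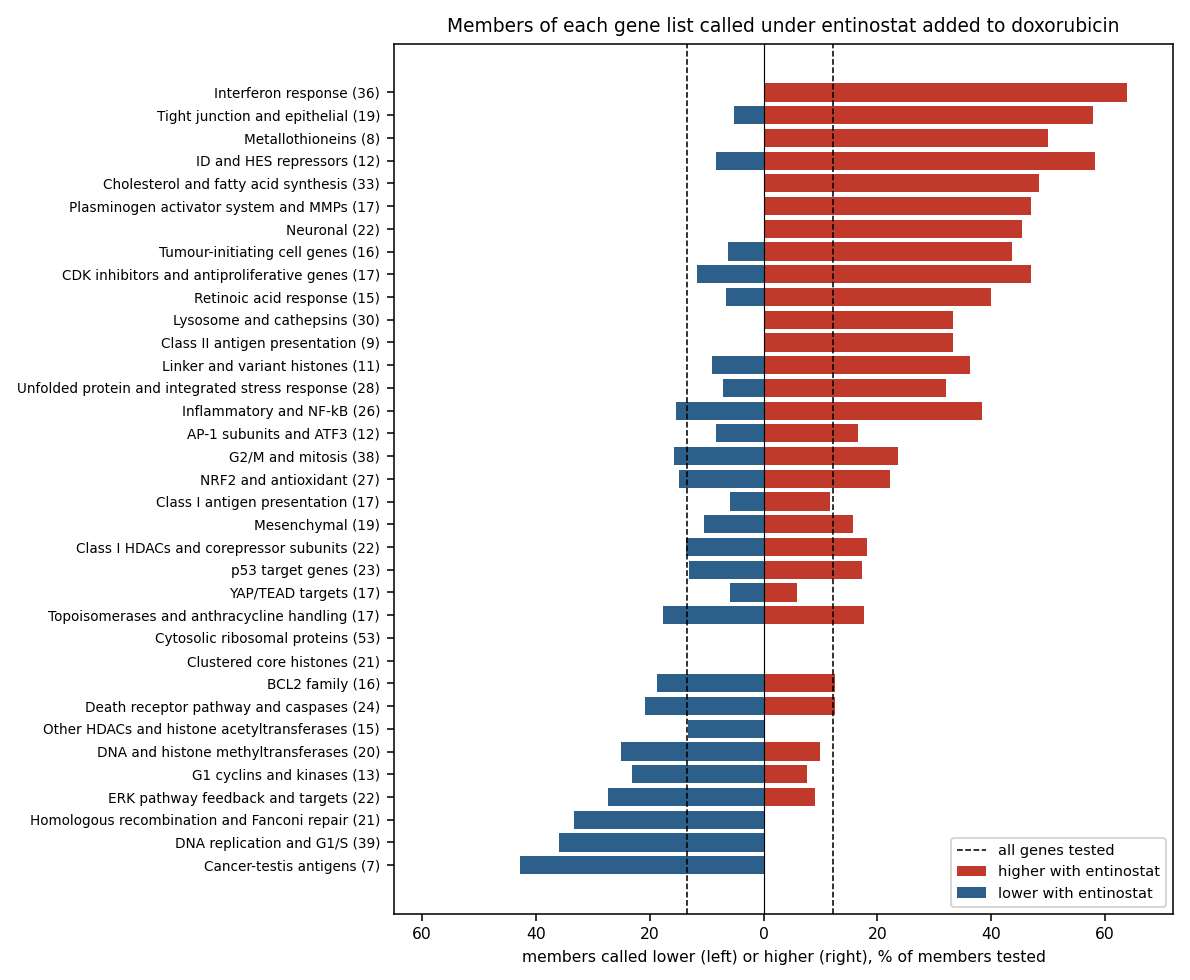
Share of the tested members of each gene list (number tested in brackets) called higher, to the right in red, or lower, to the left in blue, when entinostat was added to doxorubicin. Dashed lines mark 12.2% and 13.5%, the shares over all genes tested. Interferon response genes stand at the top with 23 of 36 higher and 0 lower, and DNA replication genes near the foot with 0 of 39 higher and 14 lower, above the 7 cancer-testis antigens with 3 lower.

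Most interferon response genes tested rose. Interferons signal through JAK kinases to transcription factors that bind the interferon-stimulated response element (ISRE) in the promoters of antiviral genes. Of 42 listed genes 36 were tested, 23 rose and 0 fell, with a median change of 0.48 against -0.03 over all genes. The ISRE letters, GAAA then any 2 bases then GAAA on either strand, were searched in RefSeq promoters (GRCh38.p14, 250 bases before to 50 after each gene's start). They occurred in 12 of 18 called members that had an entry (66.7%), in 8 of 11 members that were not called (72.7%) and in 1255 of 35116 promoters of all genes (3.57%). The promoters of 4 members are shown because each holds the motif, in capitals below, and IFITM1 and ISG15 hold 2 matches each, which overlap in ISG15.
CXCL10, chr4:76023448-76023747, minus strand: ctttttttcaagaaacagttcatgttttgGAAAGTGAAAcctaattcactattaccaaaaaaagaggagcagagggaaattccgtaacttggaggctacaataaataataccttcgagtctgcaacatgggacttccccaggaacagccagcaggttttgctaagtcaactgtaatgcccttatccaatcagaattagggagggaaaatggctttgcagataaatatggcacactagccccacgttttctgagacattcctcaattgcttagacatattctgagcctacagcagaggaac
MX1, chr21:41420308-41420607, plus strand: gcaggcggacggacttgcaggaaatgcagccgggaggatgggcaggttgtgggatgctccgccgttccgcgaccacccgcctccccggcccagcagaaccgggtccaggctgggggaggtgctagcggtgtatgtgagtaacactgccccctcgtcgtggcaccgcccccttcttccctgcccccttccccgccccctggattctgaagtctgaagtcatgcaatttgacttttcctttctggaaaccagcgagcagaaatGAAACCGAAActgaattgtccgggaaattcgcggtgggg
IFITM1, chr11:313790-314089, plus strand: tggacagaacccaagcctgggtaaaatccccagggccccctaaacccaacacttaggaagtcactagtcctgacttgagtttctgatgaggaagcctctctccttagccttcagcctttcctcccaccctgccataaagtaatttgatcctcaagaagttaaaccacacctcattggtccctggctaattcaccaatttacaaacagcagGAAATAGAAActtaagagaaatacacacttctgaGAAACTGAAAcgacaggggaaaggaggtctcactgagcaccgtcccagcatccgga
ISG15, chr1:1013247-1013546, plus strand: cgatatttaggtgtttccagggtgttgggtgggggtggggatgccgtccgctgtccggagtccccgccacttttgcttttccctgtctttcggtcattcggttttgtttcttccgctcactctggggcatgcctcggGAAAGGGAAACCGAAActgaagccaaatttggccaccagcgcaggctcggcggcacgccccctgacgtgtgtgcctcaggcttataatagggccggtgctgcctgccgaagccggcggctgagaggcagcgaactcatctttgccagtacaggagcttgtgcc
A match describes the letters in this window and is not evidence of binding.

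CXCL10, a chemokine that draws T cells, was at 365.8, 993.0, 385.9 and 662.8 with entinostat, against 42.1, 179.7, 42.8 and 89.6 without it (2.07, 4.2-fold, SE 0.13, adjusted p = 9.58e-06). In both arms its replicate 2 was brighter, and the arms did not overlap. OASL, an antiviral relative of the oligoadenylate synthetases, was at 816.2, 534.0, 975.4 and 446.6 with entinostat, against 329.5, 89.6, 251.7 and 109.7 without it (1.58, SE 0.12, adjusted p = 2.33e-05). MX1, an antiviral GTPase, was at 252.5, 132.4, 108.6 and 91.8 with entinostat, against 30.8, 0.5, 3.2 and -4.1 without it (1.46, SE 0.12, adjusted p = 3.75e-05). Its signal was near background on 3 of the 4 arrays without entinostat. IRF7, the factor that drives type I interferon genes, was at 856.0, 1309.8, 1020.9 and 1017.3 with entinostat, against 195.1, 637.4, 345.7 and 573.4 without it (1.23, SE 0.19, adjusted p = 0.00124). IFITM1, which blocks viral entry, was at 210.4, 159.6, 157.4 and 129.1 with entinostat, against 82.3, 60.4, 63.2 and 53.9 without it (0.79, SE 0.09, adjusted p = 0.000192). Across these 5 genes the lowest array with entinostat was above the highest without it.

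ISG15, a ubiquitin-like protein gene, was at 6442.6, 3718.2, 4766.0 and 3191.9 with entinostat, against 3908.5, 1520.7, 3008.5 and 1745.7 without it (0.86, SE 0.13, adjusted p = 0.00111). It was brighter on replicate 1 than on replicate 2 in all 4 groups, and its arms overlapped across replicate numbers. Without the replicate block ISG15 and IFIT1 were not called (adjusted p = 0.067 and 0.423), and 15 of the 36 members rose. With the background fitted from the detection p-values 15 rose, and with 1 array left out 17 to 23 did. In class I antigen presentation 2 of 17 genes rose and 1 fell, beside 12.2% and 13.5% of all genes. Without the replicate block 0 of the 17 did either. Of 18 listed class II antigen presentation genes 9 were tested, 3 rose and 0 fell. HLA-DMB, a chaperone of peptide loading, was at 236.1, 259.8, 153.6 and 216.4 with entinostat, against 61.4, 45.4, 39.5 and 62.9 without it (1.22, SE 0.12, adjusted p = 7.52e-05).

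Inflammatory genes moved in both directions, with 10 of 26 rising and 4 falling. IL1A, a cytokine of the interleukin-1 family, was at 237.3, 216.4, 323.5 and 259.6 with entinostat, against 13.8, 7.1, 58.7 and 50.7 without it (1.72, SE 0.10, adjusted p = 5.6e-06). The chemokine gene CCL2 was at 129.9, 58.6, 98.2 and 38.5 with entinostat, against -9.9, 2.8, -6.9 and -11.9 without it, at least 1.95-fold higher (adjusted p = 0.000316). CCL2 was below 22.3 on all 4 arrays without entinostat, and IL1A on 2 of them. IL32 rose by 0.97 (adjusted p = 0.000317) and PTGS2, the inducible cyclooxygenase, by 0.80 (0.000552). NFKB1, a subunit of NF-kB, fell by 0.56 (0.00278), and CSF2, a growth factor of myeloid cells, fell by 0.50 (0.00484). The count of rises was 6 without the replicate block or without Entinostat and Doxorubicin replicate 1.

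**Figure D3:**
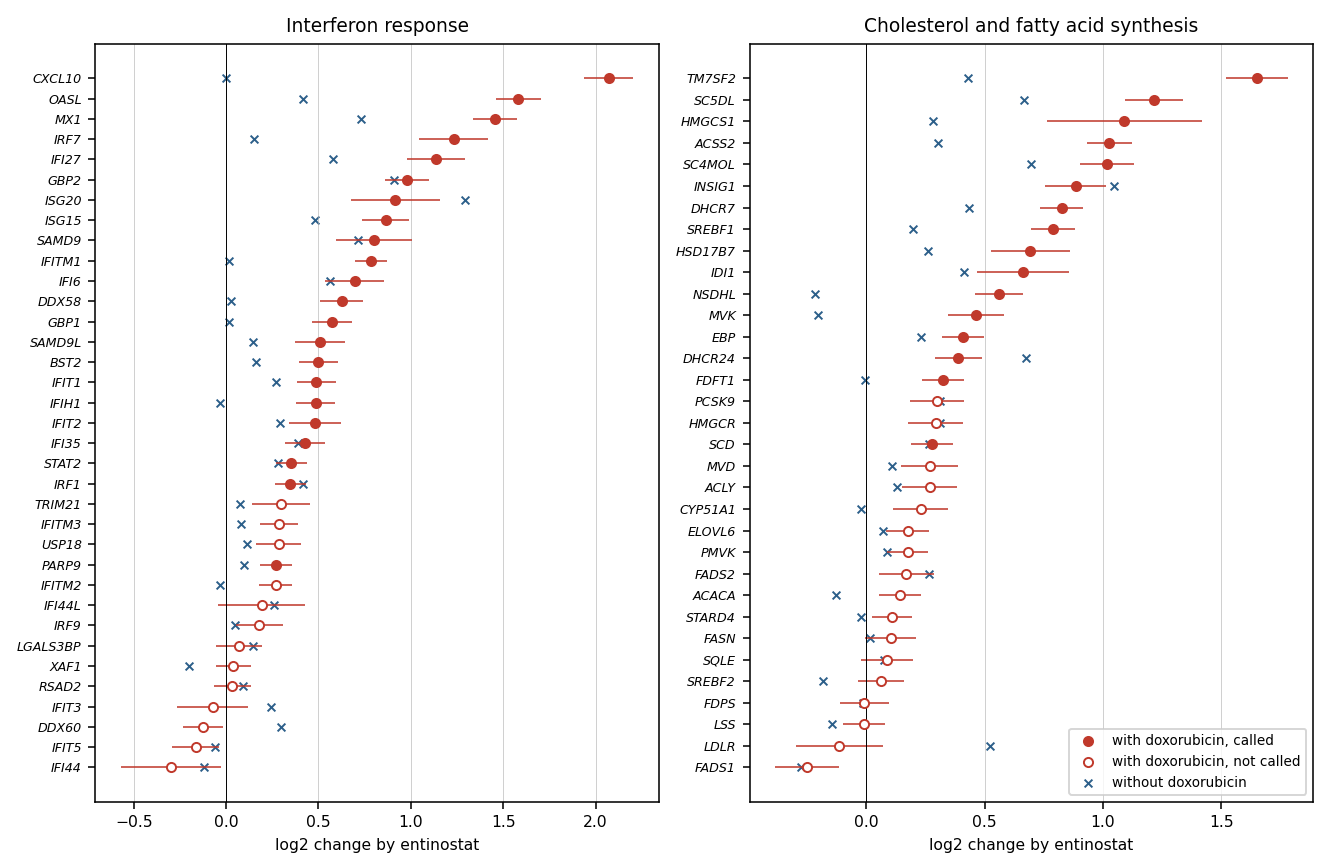
Log2 change by entinostat of 35 of the 36 tested members of the interferon response (left) and of the 33 of cholesterol and fatty acid synthesis (right). Circles are changes with doxorubicin (filled where called, bars 1 SE) and crosses changes without doxorubicin. The crosses for CXCL10 and IRF7 lie near 0 while their circles stand at 2.07 and 1.23, and TM7SF2 stands at 1.65 with and 0.43 without doxorubicin.

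Of cholesterol and fatty acid synthesis genes a large share rose and none fell. Sterol synthesis runs from acetyl-CoA through mevalonate and lanosterol to cholesterol, and its genes are driven by the SREBP factors when sterols are low. All 33 listed genes were tested, 16 rose and 0 fell, with a median of 0.29. With the background fitted from the detection p-values 12 rose, and without the replicate block 14 did. TM7SF2, a sterol reductase late in the pathway, was at 569.7, 595.9, 435.5 and 500.0 with entinostat, against 152.2, 93.1, 96.0 and 144.8 without it (1.65, SE 0.13, adjusted p = 2.96e-05). SC5DL, the sterol C5 desaturase, was at 993.0, 921.3, 907.7 and 732.9 with entinostat, against 274.2, 359.4, 367.7 and 372.1 without it (1.22, SE 0.12, adjusted p = 0.000117). ACSS2, which makes acetyl-CoA from acetate, was at 380.3, 369.2, 392.4 and 342.7 with entinostat, against 133.5, 172.2, 135.1 and 149.0 without it (1.03, SE 0.10, adjusted p = 7.2e-05). For these 3 genes the arms did not overlap. SREBF1, which encodes an SREBP factor, rose by 0.79 (SE 0.09, adjusted p = 0.00028), DHCR7, the last reductase of the pathway, by 0.83 (0.000203) and INSIG1, a sterol sensor that restrains SREBP, by 0.89 (0.00102). HMGCS1, which makes the precursor of mevalonate, was at 1436.0, 967.0, 1022.6 and 856.4 with entinostat, against 166.1, 769.5, 555.1 and 555.6 without it. Doxorubicin replicate 1 was the lowest of the 8 (1.09, SE 0.33, adjusted p = 0.0332), and without it the change was 0.60 (SE 0.12, adjusted p = 0.00591). The call was lost with an offset of 16 (adjusted p = 0.0543) and with the background fitted from the detection p-values (0.0987). It was also lost without any one of 4 other arrays (adjusted p = 0.058 to 0.128).

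More than 1 in 2 of the epithelial genes tested rose. Of 37 listed tight junction and epithelial genes 19 were tested, 11 rose and 1 fell, with a median of 0.50. A gene dim without entinostat could pass the filter through the entinostat arrays alone, so the share of tested genes that rose may be raised. The same limit applies to every list, above or below, with members left untested. CLDN1, the tight junction claudin, was at 652.8, 703.5, 452.2 and 539.1 with entinostat, against 60.9, 76.3, 70.3 and 67.3 without it (2.24, 4.72-fold, SE 0.11, adjusted p = 1.82e-06). CGN, which encodes cingulin of the junction plaque, was at 753.6, 730.7, 612.5 and 680.7 with entinostat, against 147.4, 148.1, 137.0 and 142.4 without it (1.84, SE 0.09, adjusted p = 1.81e-06). KRT19, a keratin of simple epithelia, was at 1625.7, 929.7, 1033.3 and 898.5 with entinostat, against 478.5, 129.9, 264.4 and 196.6 without it (1.89, SE 0.18, adjusted p = 7.52e-05). The arms did not overlap for any of the 3. F11R, a junctional adhesion molecule, rose by 1.20 (adjusted p = 7.2e-05), JUP, the plakoglobin of desmosomes, by 1.20 (7.98e-05) and the claudin gene CLDN7 by 1.16 (0.000631). CDH1, the E-cadherin gene, was not tested, with signals of -8.1 to 16.9 with entinostat and -11.5 to 2.0 without it. Of 5 luminal markers tested KRT19 and FOXA1 rose, while KRT8 (0.41), TFF1 (0.02) and KRT18 (-0.18) were not called. FOXA1, a pioneer factor of luminal cells, was at 119.1, 159.7, 94.7 and 141.2 with entinostat, against 3.5, 10.5, -4.2 and 25.1 without it (1.34, SE 0.10, adjusted p = 2.02e-05). Other luminal markers, ESR1, PGR and GATA3, stayed between -9.6 and 22.3 on all 8 arrays and were not tested. ERBB2, not tested either, was at 35.6 to 77.8 with entinostat and 51.4 to 81.6 without it.

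Of 19 mesenchymal genes 3 rose and 2 fell, beside 12.2% and 13.5% of all genes. The falls numbered 1 without the replicate block and 0 with the background fitted from the detection p-values. They also varied with the array left out. Among plasminogen system and matrix metalloproteinase genes 8 of 17 rose and 0 fell. MMP7, the matrilysin, was at 275.7, 226.4, 229.6 and 235.8 with entinostat, against -1.2, 15.2, 17.3 and 26.2 without it (1.91, SE 0.11, adjusted p = 5.87e-06). PLAT, the tissue plasminogen activator, was at 673.3, 518.9, 449.4 and 439.5 with entinostat, against 155.6, 83.9, 161.6 and 75.4 without it (1.67, SE 0.12, adjusted p = 2.19e-05). PLAU, the urokinase, was at 266.1, 316.6, 397.8 and 495.9 with entinostat, against 1500.9, 302.6, 655.6 and 481.1 without it, and did not pass (adjusted p = 0.158). Doxorubicin replicate 1 was the highest of the 8.

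Of 25 listed tumour-initiating cell genes 16 were tested, 7 rose and 1 fell, and 3 rose with the background fitted from the detection p-values. CD24, which is low on cells taken as tumour-initiating in breast cancer, was at 610.1, 222.5, 339.6 and 202.0 with entinostat, against 28.4, 5.9, 23.2 and 8.9 without it (2.19, SE 0.16, adjusted p = 1.69e-05). CXCR4, a chemokine receptor of migrating cells, was at 107.1, 134.0, 104.7 and 76.6 with entinostat, against -6.0, 13.8, -5.1 and -9.6 without it, at least 2.25-fold higher (adjusted p = 3.75e-05). The arms of CD24 and CXCR4 were apart, and CD24 lost its call under that background (adjusted p = 0.0656). CD44, of the MDA-MB-231 markers, did not pass (-0.23, adjusted p = 0.163). Of 41 listed neuronal genes 22 were tested, 10 rose and 0 fell (6 rose with that background). The filter may raise the shares of the tumour-initiating and neuronal lists too, as for the epithelial genes. SYT11 rose most, then TUBB2B, a neuronal tubulin, by 0.87 (0.00125), and SCG2, a secretogranin, by 0.78 (0.00184, and 0.059 with that background). Of 12 ID and HES repressor genes, which antagonise helix-loop-helix factors or act below Notch, 7 rose and 1 fell, with a median of 0.71. HES7 was at 107.5, 168.7, 64.4 and 135.3 with entinostat, against 39.0, -2.6, 2.8 and -1.8 without it (1.26, SE 0.18, adjusted p = 0.00101). HES6 rose by 1.07 (0.0012, and 0.0735 with the background fitted from the detection p-values) and HES2 by 1.05 (5.47e-05). The corepressor gene TLE1 fell by 0.32 (0.0311), but 0 members fell without the replicate block, with an offset of 16, or without Doxorubicin replicate 2, Entinostat and Doxorubicin replicate 2, either ATRA and Doxorubicin array or the 3-drug group's replicate 1.

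Of 15 genes known to respond to retinoic acid 6 rose and 1 fell. CYP26B1, which degrades retinoic acid, was at 545.3, 469.0, 537.4 and 443.7 with entinostat, against 154.8, 140.6, 109.3 and 166.1 without it (1.43, SE 0.11, adjusted p = 3.01e-05). CRABP2, a carrier of retinoic acid within the cell, was at 3138.5, 2822.4, 3089.3 and 2937.0 with entinostat, against 976.9, 1110.8, 1551.2 and 1209.6 without it (1.28, SE 0.12, adjusted p = 6.33e-05). Neither gene's arms overlapped. Of 30 lysosomal genes 10 rose and 0 fell, with a median of 0.13. After CTSL2 the largest rises were those of the sialidase gene NEU1, by 0.98 (adjusted p = 0.000241), and the cathepsin gene CTSC, by 0.73 (0.00113). Of 8 metallothionein-list genes 4 rose and 0 fell. MT1X, which binds zinc and copper, was at 4411.1, 3075.6, 4362.8 and 2691.7 with entinostat, against 1447.7, 1476.6, 2033.9 and 1533.3 without it (1.11, SE 0.13, adjusted p = 0.000256), though metallothionein probes can share signal.

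Cell cycle genes differed by list. Of 39 DNA replication and G1/S genes 0 rose and 14 fell, with a median of -0.25. POLD3, a subunit of DNA polymerase delta, was at 37.9, 23.3, 29.2 and 29.7 with entinostat, against 90.8, 58.8, 71.4 and 62.8 without it (-0.51, SE 0.09, adjusted p = 0.0029). FEN1, the flap endonuclease of Okazaki fragments, was at 1816.6, 1990.7, 1815.9 and 2249.4 with entinostat, against 3059.0, 2537.2, 2821.5 and 2664.5 without it (-0.49, SE 0.10, adjusted p = 0.00711). MCM2, of the replicative helicase, was at 166.8, 153.4, 176.4 and 160.1 with entinostat, against 272.3, 195.6, 286.8 and 225.7 without it (-0.43, SE 0.09, adjusted p = 0.00593). None of these 3 had overlapping arms. The count of falling members was 9 with an offset of 16, 7 without the replicate block, and 6 to 8 without any one of 6 arrays, the exceptions being Doxorubicin replicate 2 (15) and the 3-drug group's replicate 2 (16). Of 21 homologous recombination and Fanconi genes 0 rose and 7 fell, and with 1 array left out 2 to 5 did, the fewest without Entinostat and Doxorubicin replicates 2 (2) and 1 (3) and with 4 without Doxorubicin replicate 1, ATRA and Doxorubicin replicate 2 or the 3-drug group's replicate 1. NBN, which senses DNA breaks, was at 12.1, 5.6, 14.6 and 6.1 with entinostat, against 43.3, 25.1, 33.8 and 28.0 without it (-0.38, SE 0.09, adjusted p = 0.00894), near background in the first arm.

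G2/M and mitosis genes went both ways, with 9 of 38 rising, 6 falling and a median of -0.01. The count of rises was 4 with the background fitted from the detection p-values, and 5 without Entinostat and Doxorubicin replicate 2 or ATRA and Doxorubicin replicate 2. AURKA, the kinase of spindle poles, was at 1537.9, 1544.7, 1716.4 and 1421.9 with entinostat, against 1089.9, 1209.6, 1179.3 and 1145.6 without it (0.42, SE 0.09, adjusted p = 0.00867, and 0.108 in a fit of all 16 arrays). NEK2 and CDC25C rose by 0.70 and 0.69 (adjusted p = 0.00175 and 0.00749). CDC25C was not called with the background fitted from the detection p-values (adjusted p = 0.0841). CCNA2, the S and G2 cyclin, was at 572.3, 391.2, 461.6 and 492.9 with entinostat, against 874.2, 608.3, 677.4 and 748.0 without it (-0.54, SE 0.12, adjusted p = 0.00944, and 0.0552 with that background). The kinesin gene KIF23 fell by 0.54 (0.00278). The arms of AURKA lay apart upwards and those of CCNA2 downwards. Among G1 cyclins and kinases, 1 of 13 rose and 3 fell. CCND2, a D-type cyclin, was at 402.3, 558.9, 435.4 and 587.4 with entinostat, against 81.4, 198.4, 110.2 and 193.4 without it (1.42, SE 0.10, adjusted p = 1.47e-05), while CCND1 fell by 0.63 (0.00656, and 0.0522 with the background fitted from the detection p-values, where 1 member fell) and CDK6 fell as above.

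Of 17 CDK inhibitor and antiproliferative genes, 8 rose and 2 fell, but CDKN1A was not among them. CDKN1A was at 3433.7, 3233.8, 2913.5 and 3150.0 with entinostat, against 3024.6, 2431.1, 2512.9 and 2719.6 without it (0.24, SE 0.10, adjusted p = 0.104). It was bright in all 4 groups, and the arms overlapped. GADD45G, which restrains growth after stress, was at 549.5, 504.9, 511.7 and 303.7 with entinostat, against 11.4, 75.0, 38.2 and 68.0 without it (2.21, SE 0.21, adjusted p = 7.63e-05). BTG2, an antiproliferative gene also listed under p53 and retinoic acid, was at 227.5, 151.8, 211.2 and 88.1 with entinostat, against 9.0, 40.5, 12.7 and 35.0 without it (1.33, SE 0.20, adjusted p = 0.00108). CDKN1C, the inhibitor p57, was at 257.1, 180.5, 200.1 and 95.1 with entinostat, against 70.3, 50.7, 61.8 and 32.8 without it (1.00, SE 0.11, adjusted p = 0.00019). In all 3 the arms were apart. The count of rises was 5 without ATRA and Doxorubicin replicate 1 and 4 with the background fitted from the detection p-values. The promoter of CDKN1A is shown because deacetylase inhibitors are known to act on it through GC boxes bound by SP1, whose letters GGGCGG, or their reverse complement, are in capitals.
CDKN1A, chr6:36678464-36678763, plus strand: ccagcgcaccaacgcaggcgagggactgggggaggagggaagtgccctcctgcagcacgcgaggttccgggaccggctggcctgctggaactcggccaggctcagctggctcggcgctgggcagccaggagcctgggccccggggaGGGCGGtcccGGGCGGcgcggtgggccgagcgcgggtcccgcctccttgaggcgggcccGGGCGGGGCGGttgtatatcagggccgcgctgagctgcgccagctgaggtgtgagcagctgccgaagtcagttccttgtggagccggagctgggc
On either strand these letters occurred in 3 of the 7 list members called higher that had a promoter entry, in 4 of 6 not called, and in 15786 of 35116 promoters of all genes (45.0%). The window of CDKN1A held 4 matches.

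The counts for p53 targets and the BCL2 family were near the shares of all genes, 12.2% higher and 13.5% lower. Of 23 p53 targets 4 rose and 3 fell (2 rose without the replicate block), and GDF15, a stress cytokine, was at 461.2, 325.5, 567.2 and 385.1 with entinostat, against 153.2, 25.3, 199.7 and 20.1 without it (1.74, SE 0.18, adjusted p = 0.000129). Of 16 BCL2 family genes 2 rose and 3 fell. BIK, a BH3-only killer, was at 59.9, 34.9, 28.7 and 20.7 with entinostat, against -10.2, -13.4, -8.5 and -2.8 without it, at least 1.39-fold higher (adjusted p = 0.00119). BCL2L1, which encodes the survival protein BCL-XL, fell by 0.49 (0.0127, but 0.0503 without ATRA and Doxorubicin replicate 1). Of 24 death receptor genes and caspases 3 rose and 5 fell (1 and 3 with the background fitted from the detection p-values). CFLAR, the inhibitor of caspase-8 activation, was at 73.9, 72.6, 64.2 and 63.3 with entinostat, against 132.6, 110.1, 168.5 and 168.9 without it (-0.65, SE 0.11, adjusted p = 0.00183). BIRC2, an inhibitor of apoptosis, fell by 0.61 (0.00117). Of 28 unfolded protein and integrated stress genes 9 rose and 2 fell, among them ASNS, asparagine synthetase, at 1045.0, 929.1, 936.2 and 831.0 with entinostat, against 537.0, 452.2, 473.1 and 427.7 without it (0.89, SE 0.08, adjusted p = 7.2e-05). BIK, CFLAR and ASNS had arms that did not overlap.

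Of 27 NRF2 and antioxidant genes 6 rose and 4 fell, and 2 rose with the background fitted from the detection p-values. HMOX1, haem oxygenase, rose by 1.06 (adjusted p = 0.00052, and 0.0666 with that background), while KEAP1, which restrains NRF2, fell by 0.84 (0.000239), and so did the NRF2 target genes SLC7A11 and GCLM (0.75 and 0.61, adjusted p = 0.00101 and 0.000878). Of 22 ERK pathway genes 2 rose and 6 fell (3 fell with that background), with HBEGF, a ligand of the EGF receptor, higher by 1.00 (0.00131) and the feedback inhibitor SPRY4 lower by 0.58 (0.00266). Among 17 genes for topoisomerases and for the handling of anthracyclines, 3 rose and 3 fell, beside 12.2% and 13.5% of all genes. POR, which reduces doxorubicin to its radical, rose by 0.75 (0.00282), and TOP1 fell by 0.49 (0.0103). Both calls were lost with the background fitted from the detection p-values (adjusted p = 0.0519 and 0.0503), where 1 member fell. Of 17 YAP and TEAD targets 1 rose and 1 fell, while 4 fell without Entinostat and Doxorubicin replicate 1, 3 without Doxorubicin replicate 1, and 2 without Doxorubicin replicate 2 or ATRA and Doxorubicin replicate 2. Of 12 AP-1 genes 2 rose and 1 fell, beside the same shares of all genes, and 0 did either with the background fitted from the detection p-values. Without Doxorubicin replicate 1 or 2, 2 AP-1 genes fell. Of 7 cancer-testis antigens 0 rose and 3 fell, but 1 fell without Entinostat and Doxorubicin, ATRA and Doxorubicin or 3-drug replicate 1. The cancer-testis list held 25 genes, so most were not tested, and the changes of those tested ran from -0.4 to 0.24. The SPANX genes called higher, such as SPANXN5 (2.06) and SPANXD (0.65), were not in it, and that family is described below. Among 53 cytosolic ribosomal protein genes 0 were called, with changes of -0.21 to 0.32.

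A difference in the response between arrays with and without ATRA was not detectable for any gene. With ATRA, limma called 1961 genes (13.2%) between the 3-drug group and ATRA and Doxorubicin, 1045 higher (7.06%) and 916 lower (6.18%). Without ATRA, it called 2125 genes (14.3%) between Entinostat and Doxorubicin and Doxorubicin, 1163 higher (7.85%) and 962 lower (6.49%). The difference between the strata was called for 0 genes (0%) by limma, with 436 at an unadjusted p below 0.05, and for 14 without Doxorubicin replicate 2. HCP5 changed by 3.68 with ATRA and 3.75 without, and CXCL10 by 2.12 with ATRA and 2.02 without. ZCCHC12 changed by 3.43 with ATRA and 4.44 without, a difference of -1.01 (SE 0.59, unadjusted p = 0.108). These 2 contrasts share no array, and 2 arrays in each group limit what the test can show.

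The response to entinostat was then set against that in the 8 arrays without doxorubicin, which are Entinostat and Entinostat and ATRA against DMSO and ATRA. There limma called 1885 genes (12.7%), 1069 higher (7.22%) and 816 lower (5.51%). Of the 1801 genes called higher with doxorubicin, 614 were also called higher without it and 12 were called lower. Of the 1993 called lower, 456 were also called lower and 19 were called higher. Across the 14812 genes, which are not independent, the 2 changes had a Pearson correlation of 0.57 and a Spearman correlation of 0.50. The difference between the changes was called for 716 genes (4.83%), 404 with a higher (2.73%) and 312 with a lower (2.11%) value under doxorubicin. Of the 404, 359 were genes called higher with doxorubicin, and of the 312, 194 were genes called lower with it. Of the genes called higher with doxorubicin, 15 had a called difference below 0. Without the replicate block the difference was called for 203 and 126 genes.

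**Figure D4:**
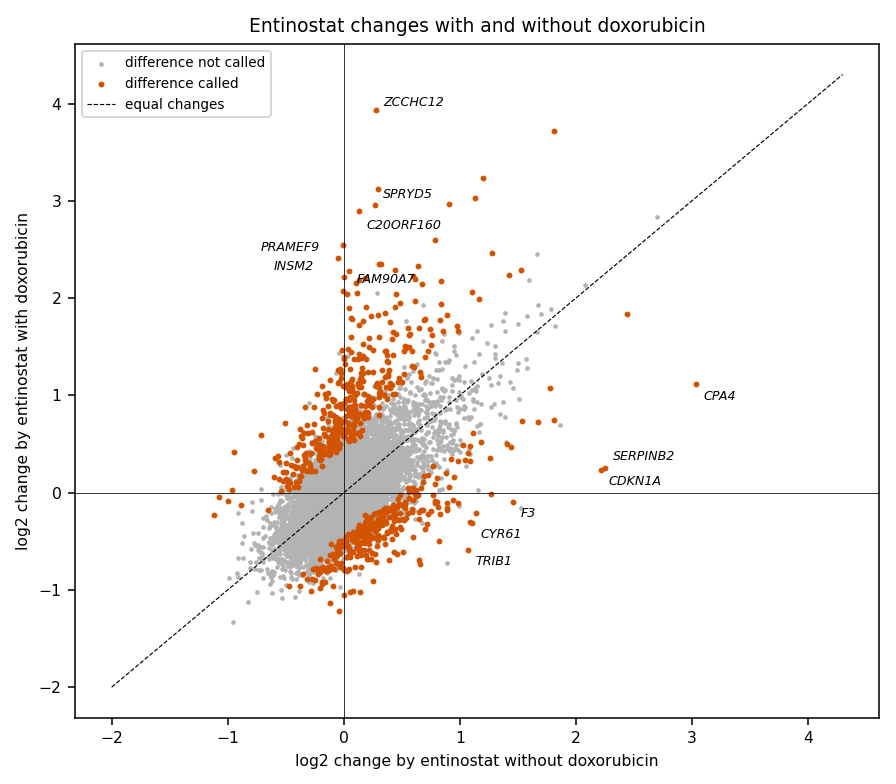
Log2 change by entinostat with doxorubicin (vertical axis) against that without doxorubicin (horizontal axis), 1 point per gene, orange where the difference between the changes was called. The dashed line marks equal changes, and the 12 labelled genes are the 6 largest differences in each direction. The 6 labelled genes at the upper left changed little without doxorubicin, and CDKN1A, SERPINB2 and F3 lie near 0 on the vertical axis.

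Of the 6 largest differences above 0, all but that of SPRYD5 were in genes that stayed below 22.3 on all 8 arrays without doxorubicin, where SPRYD5 reached 56.3. ZCCHC12 was at 12.1, -6.7, 10.1 and -7.7 on the 4 entinostat arrays without doxorubicin, and its difference was 3.66 (SE 0.42, adjusted p = 0.000193). For C20ORF160 the difference was 2.76 (SE 0.22, adjusted p = 1.43e-05), and for SPRYD5 2.69 (SE 0.39, adjusted p = 0.00144). The differences of ZCCHC12 and SPRYD5 did not pass with the background fitted from the detection p-values (adjusted p = 0.0929 and 0.16). GADD45G was at 27.9, 9.1, 12.8 and -4.7 on entinostat without doxorubicin, against 9.2, -0.5, 1.6 and -5.6 with neither drug (difference 2.02, SE 0.25, adjusted p = 0.000468). BTG2 (1.31, adjusted p = 0.00721), CDKN1C (0.79, 0.013) and CDKN2C (1.31, 0.000472) of the same list differed in this way too. CDKN2C, the inhibitor p18, was at 238.3, 262.2, 343.7 and 196.8 with both drugs, against 159.0, 183.0, 125.5 and 122.4 with doxorubicin and no entinostat. Without doxorubicin it was at 93.1, 96.7, 73.5 and 71.7 with entinostat, against 163.2, 175.9, 182.8 and 197.6 without it, so the change was 0.60 with doxorubicin and -0.71 without. The rise of CDKN2C with doxorubicin was not called with the background fitted from the detection p-values (0.22, adjusted p = 0.102). AURKA changed by 0.42 with doxorubicin and -0.95 without it (difference 1.36, SE 0.26, adjusted p = 0.00796). The G2/M list had a median of -0.01 with doxorubicin and -0.37 without, and 3 of its 38 members had a called difference, beside 4.83% of all genes.

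In the interferon list 5 of 36 members differed, beside 4.83% of all genes. CXCL10 was at 2.2, -0.8, 16.2 and 14.8 on entinostat without doxorubicin, against -0.4, 8.4, 16.1 and 8.1 without either (difference 2.07, SE 0.30, adjusted p = 0.00136). OASL differed by 1.17 (0.00331), IRF7 by 1.08 (0.044), IFITM1 by 0.77 (0.00625) and MX1 by 0.73 (0.0495). In the cholesterol list 4 of 33 differed, among them TM7SF2 by 1.22 (0.00124) and ACSS2 by 0.72 (0.00962). MMP7 differed by 1.48 (SE 0.14, adjusted p = 4.52e-05) and CXCR4 by 1.38 (SE 0.16, adjusted p = 0.000249). CLDN1 rose more with doxorubicin (difference 0.82, adjusted p = 0.00836), whereas CGN rose less (-0.61, 0.0196) and so did CXADR, a junctional receptor (-0.90, 0.00338). HES4 also rose less, by 0.75 with doxorubicin and 1.81 without (difference -1.06, adjusted p = 0.0025). TLE1 and CSF2, at -0.32 and -0.50 with doxorubicin, rose without it, by 0.72 (adjusted p = 0.000139) and 0.82 (0.000882).

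Other genes had a larger change by entinostat without doxorubicin. Without doxorubicin CDKN1A was at 2661.9, 2234.1, 3193.0 and 1691.8 with entinostat, against 487.0, 626.8, 357.1 and 404.8 without it, a change of 2.22 (SE 0.15, adjusted p = 5e-07). The difference from the 0.24 on doxorubicin was -1.98 (SE 0.21, adjusted p = 0.000125). SERPINB2, an inhibitor of plasminogen activators, was at 3499.2, 3317.6, 2892.9 and 3118.7 with both drugs, against 1339.9, 3693.8, 3267.4 and 3074.2 with doxorubicin and no entinostat. Without doxorubicin SERPINB2 was at 4066.2, 3186.0, 4944.0 and 2108.0 with entinostat, against 746.9, 894.7, 521.0 and 558.7 without it (difference -1.99, SE 0.37, adjusted p = 0.00724). CPA4, a carboxypeptidase, was at 304.8, 217.6, 397.4 and 318.5 with both drugs, against 62.5, 56.2, 179.5 and 143.3 with doxorubicin and no entinostat (1.12, SE 0.11, adjusted p = 0.000126). Without doxorubicin CPA4 reached 1443.4, 1145.3, 3370.7 and 2065.2 with entinostat, against 117.6, 118.0, 208.8 and 234.3 without it (difference -1.92, SE 0.16, adjusted p = 1.81e-05). TRIB1, a pseudokinase that acts on C/EBP factors, fell by 0.59 with doxorubicin (adjusted p = 0.00591, and 0.0975 without the replicate block) and rose by 1.07 without it (7.52e-05). F3, the tissue factor gene, and CYR61, now CCN1, a matricellular protein, differed by -1.55 and -1.42, and neither passed with doxorubicin.

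**Figure D5:**
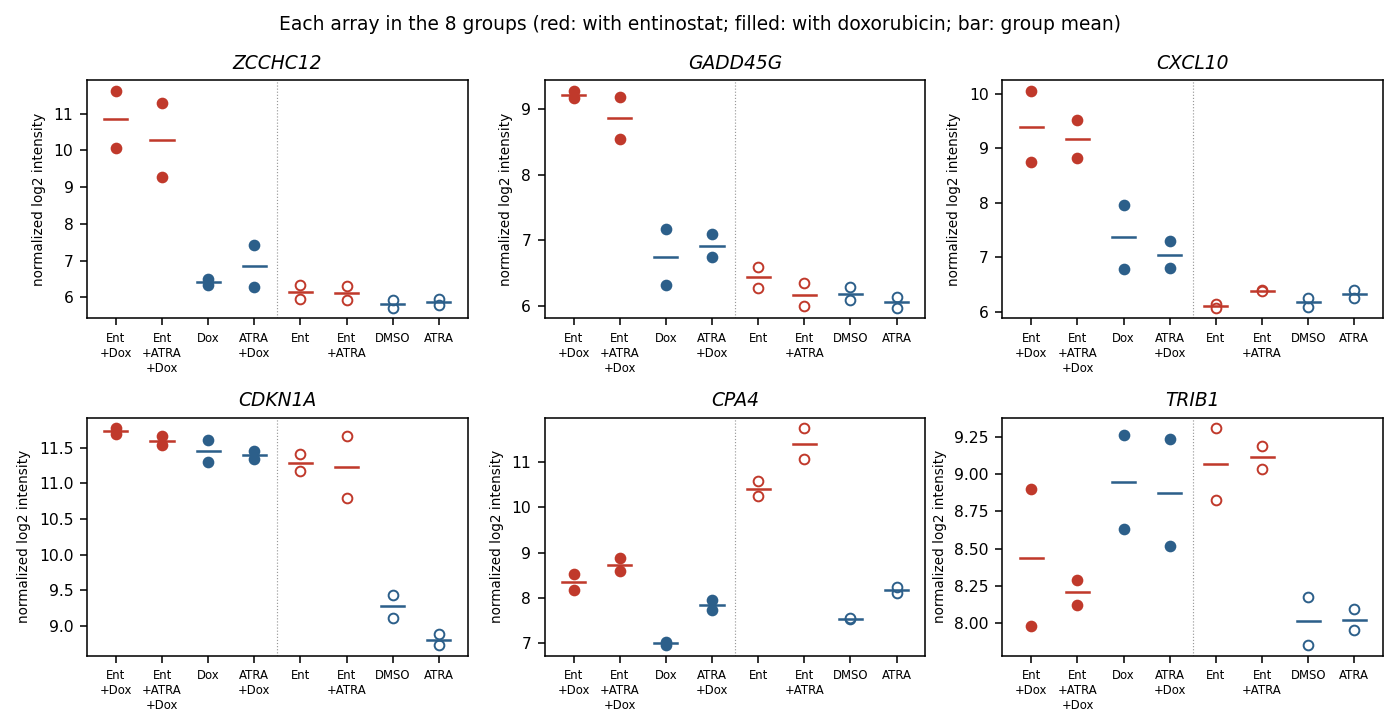
Normalized log2 intensity of 6 genes in each of the 8 groups, 1 point per array and a bar at each group's mean of 2 arrays, red with entinostat and blue without it, filled with doxorubicin and open without it. ZCCHC12, GADD45G and CXCL10 are highest in the 2 groups with both drugs, CDKN1A is lowest in the 2 groups with neither, and CPA4 is highest in the 2 groups with entinostat and no doxorubicin.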

How the data were processed

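RNA of MDA-MB-231 cells was measured on Illumina bead arrays, 16 in all and 8 with doxorubicin. The authors deposited 1 background-subtracted intensity per gene and array (-26 to 22098.4), from the values already on a shared distribution, with a detection p-value for each. Their deposited log2 table equals, from the values, the log2 of the signal plus 88.9 to 89.2, and was used as an alternative. Limma is named in the submitters' processing notes with no role stated. The step that combined probes per gene was not stated in the labels.

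Intensities were corrected by normexp with an offset of 50, quantile normalized over the 16 arrays and put on the log2 scale. Genes were tested where the detection p was below 0.05 on at least 2 of the 8 arrays, or the signal above 100 on at least 4, which kept 14812 of 31329. Of these, 9857 matched a current and 1814 an older RefSeq symbol. The fit (limma 3.58.1 in R 4.3.3) held entinostat, ATRA and replicate number, with 4 residual degrees of freedom. Contrasts by ATRA or doxorubicin came from a fit of 8 group means and replicate number on 16 arrays, with 7. The fits were tested on simulated data. The number of arrays limits the precision.

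The replicate block follows from the rule of the comparison. Deviations of same-numbered arrays correlated at 0.02 to 0.45 among the doxorubicin groups, positive for every pair of groups. The second principal component, with 17.5% of the variance, also split the doxorubicin arrays by replicate number. Same-numbered arrays thus shared some variation, weakly for some pairs of groups. Its source was not tested, and the labels do not state that the numbers pair the samples. Named genes were the 15 largest rises and falls called with 1 sign in all 4 matched pairs and a matched symbol, up to 4 largest changes in each gene list, a fixed set including HDAC1 and CDKN1A, and the 6 largest differences in each direction. Further list members were named after their values were seen. The members and lists were chosen with earlier results of these data known, and lists are described by counts and medians without a test. Alternatives covered background, offset, normalization, filter, replicate block, array weights, variance prior and each array left out. Some genes are not reported here.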

Additional observations from a re-analysis of the deposited data

Results flagged for a closer look

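The change by entinostat differed between arrays with and without doxorubicin, by a test of the difference itself in limma with 2 arrays in each group. The 6 largest differences above 0, with minus without doxorubicin on the log2 scale, were those of ZCCHC12 (3.66), C20ORF160 (2.76), SPRYD5 (2.69), PRAMEF9 (2.55), INSM2 (2.46) and FAM90A7 (2.24). The 6 largest below 0 were those of SERPINB2 (-1.99), CDKN1A (-1.98), CPA4 (-1.92), TRIB1 (-1.65), F3 (-1.55) and CYR61 (-1.42). FAM90A7 and PRAMEF9 belong to families of near-identical copies, so their signals may come from relatives. No group holds enough arrays to test a single array for distance from the others.

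Rows of the files that name an expressed sequence cluster and no gene were left out of the comparisons. Of 3270 such clusters 1304 were tested, of which 27 (2.07%) were called higher and 47 (3.6%) lower with entinostat on doxorubicin, beside 12.2% and 13.5% of named genes.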

How the results depend on the processing

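Of 600 combinations of the 30 largest rises and falls with 20 settings, 593 kept their call, 7 lost it and 0 changed direction. With the background fitted from the detection p-values 1105 genes were called higher. Without the replicate block, 1435 genes were called higher and 1485 lower, and the difference with against without doxorubicin was called for 203 higher and 126 lower. No other count over all genes left its 1.5-fold range without the block. With 1 array left out, 1328 to 1787 genes were called higher and 1239 to 1883 lower, the fewest lower without ATRA and Doxorubicin replicate 1. The difference by ATRA was called for 0 to 14 genes, the 14 without Doxorubicin replicate 2. The difference with against without doxorubicin was called for 236 to 645 genes higher and 146 to 612 lower. The highest pair came without Doxorubicin replicate 2 and the lowest without ATRA and Doxorubicin replicate 1. Leaving out DMSO replicate 1 gave 269 and 167, DMSO replicate 2 gave 251 and 177, Entinostat replicate 2 gave 267 and 178, and ATRA replicate 2 gave 255 and 172. The lower count alone moved without Entinostat replicate 1 (196), ATRA replicate 1 (160), the 3-drug group's replicate 1 (157) and ATRA and Doxorubicin replicate 2 (197). An arm left with 1 array was assumed to vary like the other groups. The cause of these shifts was not tested. Of the 12 largest differences, 7 did not pass with the background fitted from the detection p-values: ZCCHC12 (adjusted p = 0.0929), SPRYD5 (0.16), PRAMEF9 (0.288), INSM2 (0.104), FAM90A7 (0.158), SERPINB2 (0.0524) and CYR61 (0.0658). INSM2 did not pass in 12 of 25 settings, which also included no replicate block (0.0608) and an offset of 16 (0.0784). In its other lost settings 1 array was left out. Its difference ran from 1.34 to 3.18 across the settings. On each array 27.5% to 28.2% of deposited intensities lie below 0, so changes of genes near background are bounded by the offset.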

Other observations

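Members of several multicopy gene families rose with entinostat on doxorubicin. The families were picked after their values were seen, and their near-identical copies may share signal. Many members passed the filter only through the arrays with entinostat, so the shares called are no measure of the families. Of 22 PRAMEF genes in the file 8 were tested and 7 called higher, of 19 FAM90A genes 12 were tested and 10 called, and of 13 SPANX genes 10 were tested and 4 called. Of 7 RFPL genes 1 was tested and called, and 5 were detected on none of the 8 arrays. Of 4 genes of the TRIM43, TRIM48, TRIM49 and TRIM51 group 3 were tested and called, and of 3 MBD3L genes 2 were tested and 0 called. PRAMEF4 ran from 66.0 to 593.7 with entinostat and from -6.4 to 5.2 without it. FAM90A2P ran from 98.1 to 504.5 with entinostat and from 4.8 to 6.5 without it. SPANXN5 ran from 33.8 to 874.2 with entinostat and from -13.8 to 23.2 without it, RFPL4A from 57.8 to 531.3 and from -6.6 to 16.4, and TRIM48 from 36.1 to 334.8 and from 12.8 to 29.2. SPANXD ran from 1529.9 to 3170.7 with entinostat and from 1088.9 to 1624.4 without it. The brighter SPANXA1, SPANXA2, SPANXB1, SPANXB2, SPANXC and SPANXE were not called, with changes of -0.18 to 0.24. The single ZSCAN4 row was not tested.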
